A study of Mus musculus with 20 samples.

Results

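Expression in whole testes of C57BL/6 mice was compared between 24 h and 12 h after heat shock. The members were the 4 arrays whose titles give the strain C57BL/6 and either 24 h (2 arrays) or 12 h (2 arrays), of 20 arrays in all. Those mice were 8 weeks old and had been heated at 43 °C for 15 min. The other arrays used here were C57BL/6 testes 10 h and 8 h after the same heat and unheated C57BL/6 testes, and testes of the strain AKR/N at 24 h, at 12 h and at the other times of the same design, with 2 arrays for each strain and time. Both strains are inbred laboratory mice, and no transgene or mutation is named in the labels. The unheated controls have no time of their own, and no unheated testes matched to 12 h or 24 h were analysed here. So time after heat and time of sampling cannot be told apart. Whether both arrays of a group stand for separate mice is not given, so the p-values reflect the spread between these arrays alone, and that spread may be technical.

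The testis is kept below body temperature, and its germ cells are sensitive to heat. Spermatocytes in meiosis and early spermatids are the stages most often lost after heating, and Sertoli cells, which nurse the germ cells and form the blood-testis barrier with their junctions, take up dying germ cells and digest them in lysosomes. In most cells heat activates heat shock factors, which bind repeats of the unit GAA in promoters and raise the transcription of chaperones, proteins that refold or hold other proteins. That induction normally fades once the heat has passed.

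Values are signals of probe sets, the groups of short oligonucleotides that read 1 transcript on the array, on the authors' linear scale. Changes are differences of group means of log2(signal + 16), 24 h minus 12 h, so that a positive value means more signal at 24 h. Each comes with its standard error (SE) and adjusted p from a limma fit of all 20 arrays. A gene was called higher or lower at an adjusted p under 0.05, and the added 16 understates the changes of dim genes. Median signals per array were 24.9 to 34.9. C57BL/6 12 h replicate 2 stood apart: it had that highest median, and its beta-actin ratio of 3' to 5' signal, which depends on RNA integrity and amplification, was 3.57, the highest of the 20 arrays, against 2.84 and 2.58 at 24 h and 2.52 in 12 h replicate 1. The 12 h replicates also correlated least of all replicate pairs across genes (r = 0.970, against a highest r of 0.988). Defining genes of germ and somatic testis cells were read at every time. Prm1 of elongating spermatids gave 11140 and 11092 at 24 h and 10341 and 10778 at 12 h, and Sycp3 of meiotic cells gave 1684 and 1688 at 24 h and 1846 and 1471 at 12 h. Sox9 of Sertoli cells gave 204 and 170 at 24 h and 160 and 170 at 12 h.

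Of 15762 genes tested, 886 were higher at 24 h than at 12 h, which is 5.62% of the genes, and 629 were lower, which is 3.99%. The difference was at least 2-fold for 273 of these, 196 of them higher and 77 lower. The median difference of all genes was 0.01. Both 24 h arrays lay above both 12 h arrays for 28% of all genes and below them for 24.4%, so arrays that do not overlap are common in this comparison. The number of calls rested on single arrays. Without 12 h replicate 2 there were 211 higher and 139 lower genes, without 24 h replicate 1 there were 109 and 97, without 24 h replicate 2 there were 403 and 237, and without 12 h replicate 1 there were 1109 and 677. In each of these 4 fits, 86 of the 886 and 58 of the 629 were called, and all 1515 kept their direction in all 4. The kept direction says little, because each of these fits left out only 1 of the 4 arrays on which the genes were chosen. Of the genes called higher, 73.4% had less signal in 12 h replicate 2 than in 12 h replicate 1, against 47.3% of all genes tested, and the part of RNA quality in this was not tested. Because whole testes were measured, fewer cells of a type and less RNA per cell cannot be told apart.

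Most tested members of each chaperone list were not called in this interval, beside 5.62% higher and 3.99% lower over all genes. Those that were called fell, except 2 co-chaperones, Stub1 and Bag2, and 1 testis-specific member, Dnajb7. Not all that fell had been induced, and several strongly induced chaperones, such as Hspa1a and Hspd1, did not pass the test. Hspa1b, which encodes the inducible HSP70, had signals of 590 and 286 at 24 h and 2259 and 6071 at 12 h. Both 24 h arrays were far below the 12 h arrays, although the 12 h arrays differed widely between themselves. The log2 difference was −3.12 (SE 0.66, adjusted p = 0.0117), 8.70 times more signal at 12 h than at 24 h on that scale. The call ended without 12 h replicate 2 (−2.41, adjusted p = 0.113) and without 24 h replicate 2 (−2.62, adjusted p = 0.0857). Hspa1a, a near-identical copy whose probes may read both transcripts, gave 449 and 249 at 24 h and 783 and 3385 at 12 h (difference −2.23, SE 0.67, adjusted p = 0.0522). Hspa1b signals at 24 h were still above those of unheated testes, which were 58.1 and 39.1.

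Hspa8, the constitutive HSC70 of the cytosol, gave 2447 and 2596 at 24 h and 4388 and 4265 at 12 h. These arrays were close within each time and did not overlap between times, and the fall of 0.78 (SE 0.11, adjusted p = 0.00283) was called whichever of the 4 arrays was left out. Its other probe sets gave differences of −0.98 to −0.84. The control arrays of Hspa8 read 1213 and 1287. So Hspa8 at 24 h, like Hspa1b, was still above its unheated signals. Hsph1, an HSP110 exchange factor for HSP70, had a difference of −0.49 (adjusted p = 0.092) with −2.55 on its other probe set. Hsp90aa1 differed by −0.14 (adjusted p = 0.405), with −0.64 to −0.18 on its other probe sets. The probe set at −0.64 gave 1957 and 2324 at 24 h and 3445 and 3205 at 12 h. In this list of HSP70, HSP110 and HSP90 chaperones 0 of 6 tested members were higher, 2 lower and 4 not passing, with a median of −0.63. All genes had 5.62% higher, 3.99% lower and a median of 0.01.

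The mitochondrial chaperonin is a barrel of HSP60 subunits, encoded by Hspd1, capped by HSP10, encoded by Hspe1. The genes stand head to head on mouse chromosome 1 and share 1 promoter region, and the part of it that holds matches to a heat shock element is shown because Hspe1 was called lower in this interval and Hspd1, read from the same region, was not called. The motif searched on both strands was GAA, then any 2 bases, then TTC, then any 2 bases, then GAA, in the 250 bases before each RefSeq gene start of the assembly GRCm38.p6. Capitals mark the matched bases, which are 2 overlapping matches, 1 on each strand, and the lines give the same stretch, chr1:55088039-55088096, on the plus strand for Hspe1 and on the minus strand for Hspd1.
Hspe1: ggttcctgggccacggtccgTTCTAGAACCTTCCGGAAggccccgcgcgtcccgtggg
Hspd1: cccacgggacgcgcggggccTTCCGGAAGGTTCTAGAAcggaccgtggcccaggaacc
The stretch lies 109 to 52 bases before the start of Hspe1 and 164 to 107 bases before that of Hspd1. The motif was found in 153 of 32851 RefSeq windows (0.466%), or in 139 of 27025 genes. Of the 44 tested members of the 4 lists of chaperones and co-chaperones, 37 had a window, and 3 of these held the motif, Dnajb6 being the other. Among the 4 called lower that had a window, 1 held it. The window of Hspa1b held no match of these letters.

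Hspe1 gave 1821 and 1788 at 24 h and 2799 and 3302 at 12 h, while Hspd1 gave 2193 and 2250 at 24 h and 2164 and 2544 at 12 h. The Hspe1 arrays did not overlap between the times, and those of Hspd1 did. Hspe1 fell by 0.75 (SE 0.19, adjusted p = 0.0266), and Hspd1 differed by −0.08 (SE 0.17, adjusted p = 0.816). The call of Hspe1 ended without 12 h replicate 2 (adjusted p = 0.171), without 24 h replicate 1 (0.128) and without 24 h replicate 2 (0.108). Both genes were far above their control signals at both times, by 2.94 and 2.79 at 12 h and by 2.19 and 2.71 at 24 h on the log2 scale for Hspe1 and Hspd1 in that order. Of 7 mitochondrial chaperones tested, 0 were higher, 1 lower and 6 not passing (median 0.05), beside 5.62% higher and 3.99% lower over all genes. Whether the changes of Hspe1 and Hspd1 differ from each other was not tested.

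Small heat shock proteins hold unfolded proteins without using ATP. Of 6 tested, 0 were higher, 1 lower (Hspb7, a form best known from heart and muscle) and 5 not passing, with a median of −0.29. The shares over all genes were 5.62% higher and 3.99% lower. Hspb1 gave 2873 and 2657 at 24 h and 3579 and 3909 at 12 h, a difference of −0.43 (SE 0.15, adjusted p = 0.0845), and Cryab gave 227 and 239 at 24 h and 300 and 308 at 12 h, a difference of −0.36 (adjusted p = 0.361). Neither gene's arrays overlapped, and neither passed the test. Against controls, Hspb7 differed by −0.56 at 10 h, −0.25 at 12 h and −1.05 at 24 h, so it had not been induced at these times. Hspb7 differed by −0.80 (adjusted p = 0.0456), a call that ended without 12 h replicate 1 (adjusted p = 0.0577), 12 h replicate 2 (0.231) or 24 h replicate 1 (0.35). Of 25 HSP40 and other co-chaperones, 2 were higher, 1 lower and 22 not passing (median 0.10). Stub1 rose by 0.53 and Bag2 by 0.59 (adjusted p = 0.0345 and 0.0365). Neither call held without 12 h replicate 2 (0.30 and 0.41), 24 h replicate 1 (0.58 and 0.77) or 24 h replicate 2 (0.48 and 0.41). The other probe set of Stub1 went the other way (−0.39). Dnaja1, an HSP40 that hands clients to HSC70, fell to 1634 and 1656 at 24 h, against 2439 and 2557 at 12 h. Its difference was −0.60 (SE 0.12, adjusted p = 0.00833), with adjusted p = 0.0631 without 12 h replicate 2 and 0.0719 without 24 h replicate 1. Among heat shock factors Hsf5, a testis-specific member, fell by 0.75 (adjusted p = 0.00491; 0.058 without 24 h replicate 1), with 0 of 3 higher, 1 lower and 2 not passing (median −0.42). Of 12 testis-specific chaperones 1 was higher, 1 lower and 10 not passing (median 0.19). Without 12 h replicate 1 there were 0 higher and 1 lower, and without any other array 0 were called.

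**Figure D1:**
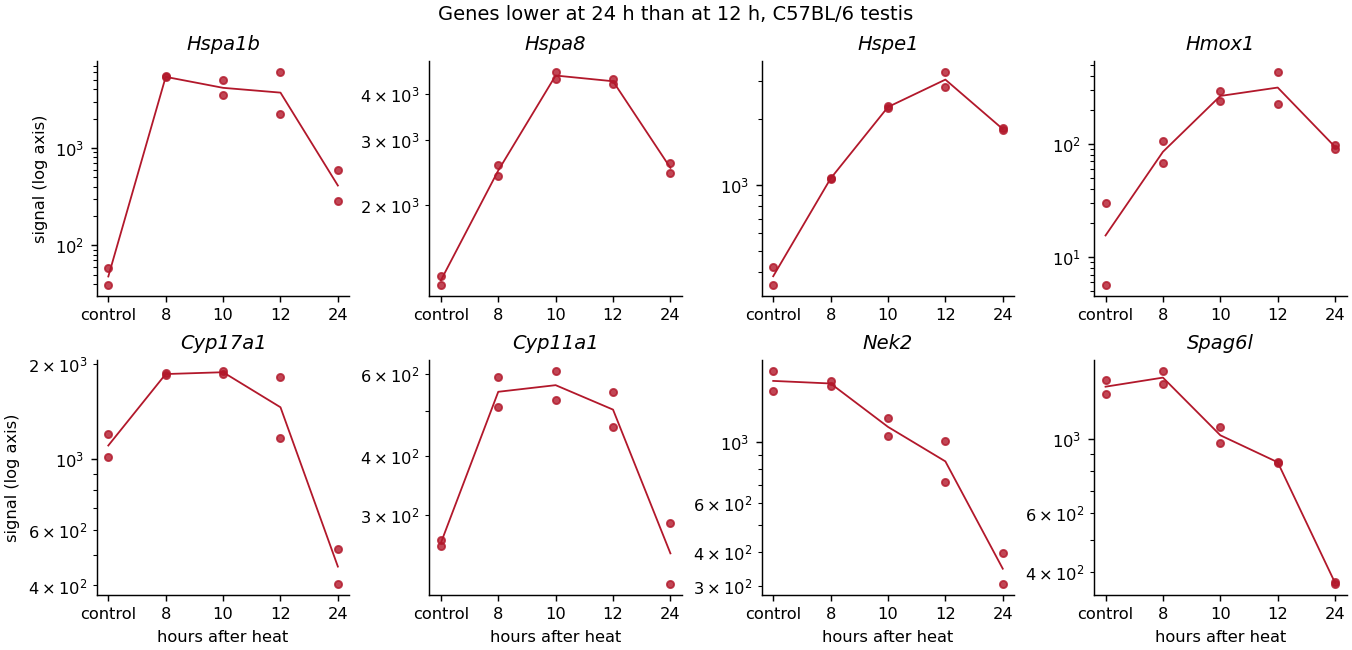
Signal (log axis) of 8 genes that were lower at 24 h than at 12 h in C57BL/6 testis, against hours after heat, with unheated controls at the left. Points are single arrays (2 per time) and lines join the group means of log2(signal + 16) turned back into signals; Hspa1b and Hspe1 stay above controls at 24 h, while Nek2 and Spag6l at 24 h lie below all earlier times.

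Oxidative stress genes moved in both directions. Hmox1, the heme oxygenase induced by oxidants, gave 97 and 90.9 at 24 h and 227 and 433 at 12 h. Both 24 h arrays were lower, with a difference of −1.59 (SE 0.40, adjusted p = 0.0255). The call ended without 12 h replicate 2 (−1.14, adjusted p = 0.206), without 24 h replicate 1 (adjusted p = 0.12) and without 24 h replicate 2 (0.106). Mt2, a metallothionein, fell by 0.60 (adjusted p = 0.00744; 0.0649 without 12 h replicate 2 and 0.0571 without 24 h replicate 2). Txn1, the cytosolic thioredoxin, gave 1345 and 1137 at 24 h and 799 and 745 at 12 h and rose by 0.67 (SE 0.13, adjusted p = 0.00807). A further probe set gave −0.61, and adjusted p was 0.0649 without 12 h replicate 2 and 0.0932 without 24 h replicate 1. Among 22 antioxidant genes, 3 were called higher and 3 lower, 16 did not pass, and the median was 0.14. The shares over all genes were 5.62% higher and 3.99% lower.

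Genes of the early stress response were mostly not called, and over all genes 5.62% were higher and 3.99% lower. Of 28 immediate early transcription factors 0 were higher, 2 lower and 26 not passing, with a median of −0.31 and 5 members above 0. The 2 called were Btg1, an antiproliferative factor, at −0.53, and Maff, a small MAF factor, at −1.04 (adjusted p = 0.0182 and 0.0489). Without 12 h replicate 2 their adjusted p was 0.153 and 0.385, without 24 h replicate 1 it was 0.131 and 0.0787, and without 24 h replicate 2 it was 0.0623 and 0.281. Jun gave 85.1 and 82.1 at 24 h and 104 and 271 at 12 h, a difference of −0.90 (adjusted p = 0.1). Of 27 p53 targets 3 were higher, 1 lower and 23 not passing (median 0.11). Rrm2b, a ribonucleotide reductase subunit for DNA repair, rose by 1.08 (SE 0.19, adjusted p = 0.00548; 0.0564 without 12 h replicate 2 and 0.0649 without 24 h replicate 1). Of 31 genes of the BCL2 family and caspases 4 were higher, 1 lower and 26 not passing (median 0.25). Without 12 h replicate 2 or 24 h replicate 1, 0 of these and 0 of the p53 targets were called higher. Bid, which links death receptors to mitochondria, rose by 0.93 (SE 0.16, adjusted p = 0.00548; 0.0548 without 12 h replicate 2 and 0.0611 without 24 h replicate 1).

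Leydig cells between the tubules make testosterone from cholesterol. Of their 10 tested markers 3 were higher, 3 lower and 4 not passing (median 0.18), beside 5.62% higher and 3.99% lower over all genes. The enzymes of the pathway moved in both directions. Cyp17a1, which turns pregnenolone and progesterone into androgen precursors, gave 521 and 404 at 24 h and 1171 and 1821 at 12 h. The arrays did not overlap, the difference was −1.64 (SE 0.19, adjusted p = 0.00132), and it was called without any 1 of the 4 arrays. The 24 h signals were also below the unheated ones, 1203 and 1017, with a difference from controls of −1.24 at 24 h and 0.40 at 12 h. Cyp11a1, which cuts the cholesterol side chain, gave 288 and 214 at 24 h and 462 and 548 at 12 h. It fell by 0.97 (SE 0.15, adjusted p = 0.00331), with −1.18 to −0.77 when 1 array was left out. Its other probe sets gave 0.03 to 0.16, at signals of only 1.84 to 31.9.

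Hsd17b3, which makes testosterone from androstenedione, gave 121 and 119 at 24 h and 174 and 214 at 12 h and fell by 0.62 (SE 0.14, adjusted p = 0.0144). That call ended without 12 h replicate 2 (adjusted p = 0.127), 24 h replicate 1 (0.0877) or 24 h replicate 2 (0.0741). Hsd3b1, the 3-beta-hydroxysteroid dehydrogenase, ran the other way, with 555 and 563 at 24 h and 245 and 228 at 12 h. Its arrays did not overlap between the times, and it rose by 1.19 (SE 0.21, adjusted p = 0.00553; 0.0537 without 24 h replicate 1). Nr5a1, the transcription factor SF-1 that drives steroid enzymes, rose by 0.76 (SE 0.17, adjusted p = 0.0156), with adjusted p = 0.079 without 12 h replicate 2 and 0.128 without 24 h replicate 1. Star, which carries cholesterol into mitochondria, gave 751 and 645 at 24 h and 745 and 582 at 12 h and overlapped between the times (0.08, adjusted p = 0.859). Its other probe sets gave 0.66 and −0.17. The summed signal of the 10 Leydig markers on the chip was 8695 and 7914 at 24 h and 8503 and 8436 at 12 h.

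Among genes of the sperm tail axoneme, the microtubule core that beats, more were called lower than higher. Of 59 tested, 18 were lower, against 3.99% of all genes, 1 was higher and 40 did not pass, with a median of −0.38, and 6 lay above 0. Without 1 array the number lower was 12 (12 h replicate 1), 8 (12 h replicate 2), 6 (24 h replicate 1) and 8 (24 h replicate 2). Spag6l, a central-pair protein, gave 375 and 369 at 24 h and 853 and 849 at 12 h. The replicates were nearly equal at each time, and the fall of 1.16 (SE 0.14, adjusted p = 0.00132) was called in all 4 fits without 1 array. Its controls were 1361 and 1502. Dnaic2, an outer-arm dynein intermediate chain, gave 74.7 and 66.6 at 24 h and 288 and 253 at 12 h. It fell by 1.72 (SE 0.28, adjusted p = 0.00448). Its other probe set gave −0.38, but read only 4.61 and 7.75 at 24 h and 5.52 and 22.7 at 12 h. Cfap161 and Ccdc39, a ruler protein of the axoneme, fell by 0.97 and 0.91 (adjusted p = 0.00362 and 0.00414), both in all 4 fits.

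Cell division genes and markers of pachytene spermatocytes, cells in the long middle phase of meiosis, had more members called lower than higher, and most members did not pass. Of 32 division kinases and cyclins 3 were higher, 9 lower and 20 not passing (median −0.27), beside 5.62% higher and 3.99% lower over all genes, and 6, 6, 2 and 5 were lower without 12 h replicates 1 and 2 and 24 h replicates 1 and 2. Nek2, a centrosomal kinase, gave 305 and 394 at 24 h and 1014 and 716 at 12 h. It fell by 1.26 (SE 0.20, adjusted p = 0.00362) in all 4 fits, and its other probe sets gave −1.36 to −0.36. Aurka and Aurkc, kinases of the mitotic and meiotic spindle, fell by 1.17 and 0.85 (adjusted p = 0.00643 and 0.00502), with adjusted p = 0.066 for Aurka without 24 h replicate 1. Ccna1, a cyclin A of male meiosis, gave 218 and 204 at 24 h and 608 and 495 at 12 h. It fell by 1.32 (adjusted p = 0.00798), a call that did not hold without 24 h replicate 1 (−1.36). Ccnb3, a cyclin of earlier meiotic prophase, rose, with 98.1 and 121 at 24 h and 24.5 and 22.8 at 12 h. Its difference was 1.66 (SE 0.32, adjusted p = 0.00732; 0.0526 without 12 h replicate 2 and 0.0509 without 24 h replicate 2).

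Of 23 pachytene markers 1 was higher, 6 lower and 16 not passing (median −0.27), and 5, 4, 1 and 4 were lower without 12 h replicates 1 and 2 and 24 h replicates 1 and 2. Piwil1, which binds piRNAs, gave 227 and 297 at 24 h and 508 and 456 at 12 h and fell by 0.85 (SE 0.17, adjusted p = 0.00874; 0.103 without 24 h replicate 1). Cyct, the testis form of cytochrome c, fell by 0.72 (adjusted p = 0.00813; 0.0656 without 24 h replicate 1). Over all genes, 5.62% were higher and 3.99% lower. The summed signal of the pachytene markers was 43680 and 44706 at 24 h and 48623 and 49405 at 12 h, and the times did not overlap. Meiotic recombination and synapsis genes, by contrast, had 0 of 26 higher, 0 lower and 26 not passing (median 0.02). Round spermatid markers had 0 of 25 higher, 2 lower and 23 not passing (median 0.13), and without 12 h replicate 2 or either 24 h array 0 were lower. Elongating spermatid markers had 0 of 25 called, with a median of 0.11 and 24 members above 0, and their summed signal was 172621 and 176805 at 24 h and 166209 and 161076 at 12 h. Of 21 spermatogonial markers 1 was higher, 0 lower and 20 not passing (median −0.003). That gene was Stra8, which starts meiosis under retinoic acid, with 335 and 304 at 24 h and 183 and 200 at 12 h, a rise of 0.69 (adjusted p = 0.0101; 0.0922 without 24 h replicate 1).

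Other germ cell lists held single strong members. Pabpc6, a testis poly(A)-binding protein, gave 332 and 286 at 24 h and 887 and 833 at 12 h and fell by 1.43 (SE 0.18, adjusted p = 0.00179) in all 4 fits. It was 1 of 3 germ cell mRNA-binding proteins that were lower, with 1 higher and 21 of 25 not passing (median −0.11). The shares over all genes were 5.62% higher and 3.99% lower. Cirbp, whose RNA-binding protein is induced by cold, fell by 0.65 (adjusted p = 0.0159; 0.129 without 12 h replicate 2 and 0.141 without 24 h replicate 1). Of 18 piRNA and germ granule genes 1 was higher, 2 lower and 15 not passing (median −0.21). Of 80 respiratory chain and ATP synthase genes 1 was higher, 3 lower and 76 not passing (median −0.09). The 3 lower were Cox8c, Cox7b2 and Cox6b2, the germ cell forms of cytochrome c oxidase subunits, at −0.74, −0.70 and −0.43 (adjusted p = 0.00493, 0.00603 and 0.0266). Cox8c was called in all 4 fits, although its other probe set gave 0.00, Cox7b2 had adjusted p = 0.0613 without 24 h replicate 1, and Cox6b2 had 0.163, 0.128 and 0.113 without 12 h replicate 2 and 24 h replicates 1 and 2. Slc2a3, the glucose carrier of germ cells, gave 2197 and 2049 at 24 h and 3563 and 3346 at 12 h and fell by 0.70 (SE 0.11, adjusted p = 0.00431) in all 4 fits. It was the 1 called among 11 germ cell glycolysis genes (median −0.06).

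Of the largest falls, Enthd1, a protein with an epsin-type domain, gave 56.2 and 48.5 at 24 h and 163 and 152 at 12 h and fell by 1.35 (SE 0.12, adjusted p = 3.52e-04) in all 4 fits. Pxt1, a peroxisomal testis protein, fell by 1.45 (adjusted p = 0.00132), Rfx8, of the RFX family of transcription factors, by 1.42 (0.00341), and Zcchc2, a zinc finger protein, by 1.32 (0.0019), likewise in all 4 fits. Pxt1 gave 95.1 and 97.1 at 24 h and 277 and 305 at 12 h. Bhmt, which makes methionine from betaine, gave 570 and 332 at 24 h and 1027 and 1382 at 12 h, a difference of −1.42 (adjusted p = 0.0063; 0.063 without 12 h replicate 2 and 0.0541 without 24 h replicate 2). Other falls among the largest rested on single arrays or probe sets. Iqca differed by −1.29 (adjusted p = 0.00866; 0.0513 without 12 h replicate 2 and 0.0913 without 24 h replicate 1) with −0.32 on its other probe set. Lce1h (−1.38) and Igll1 (−1.30) lay under the dim-gene threshold, a signal of 17.5, at 24 h. The call of Lce1h ended without any 1 array (adjusted p from 0.101 to 0.165), and that of Igll1 without 12 h replicate 2 (0.179), 24 h replicate 1 (0.118) or 24 h replicate 2 (0.0923).

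The largest rises were not a single family. Serpinb2, an inhibitor of plasminogen activators, gave 78.2 and 129 at 24 h, against 6.93 and 11.2 at 12 h, where it was dim as in all other C57BL/6 groups. Its rise of 2.23 (SE 0.38, adjusted p = 0.00511) was called in all 4 fits but not with a pseudocount of 1. Diaph2, a formin that nucleates actin, gave 380 and 326 at 24 h and 81.4 and 54.3 at 12 h, a rise of 2.15 (SE 0.18, adjusted p = 2.03e-04), with 1.32 on its other probe set. Its controls read 146 and 126, so that it lay below controls at 12 h (−0.87) and above them at 24 h (1.28). Adh1, an alcohol dehydrogenase that oxidises ethanol and retinol, gave 504 and 475 at 24 h and 169 and 84.2 at 12 h, a rise of 1.89 (SE 0.22, adjusted p = 0.00132). It was above 38.2 and 53.1, its control signals, at both times.

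Ktn1, a kinesin-binding membrane protein (1.74), Scara3, a scavenger receptor (1.71), Smpd1, the acid sphingomyelinase of lysosomes (1.69), and Taldo1, transaldolase of the pentose phosphate pathway (1.61), rose in all 4 fits (adjusted p = 0.00393, 0.00295, 0.00117 and 0.00306). Ogt, which adds O-GlcNAc to proteins (1.60), Myof, a membrane repair protein (1.60), and Rsu1, a focal adhesion protein (1.56), did so as well (adjusted p = 0.00304, 0.00261 and 0.00304). Probe sets differed for some of them, with −0.28 to 1.09 on others of Ogt and 0.56 on the other of Smpd1. Celf2, a splicing regulator, rose by 1.55 (adjusted p = 0.00502; 0.0546 without 24 h replicate 1). Kctd14 rose by 1.69 (adjusted p = 0.00716; 0.052 without 12 h replicate 2 and 0.0727 without 24 h replicate 1). Vxn rested on 1 array: it gave 111 and 87.7 at 24 h, but 54.1 and 3.25 at 12 h (1.65, adjusted p = 0.0265), and without 12 h replicate 2 the difference was 0.71 (adjusted p = 0.18), with adjusted p = 0.16 and 0.0761 without 24 h replicates 1 and 2.

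**Figure D2:**
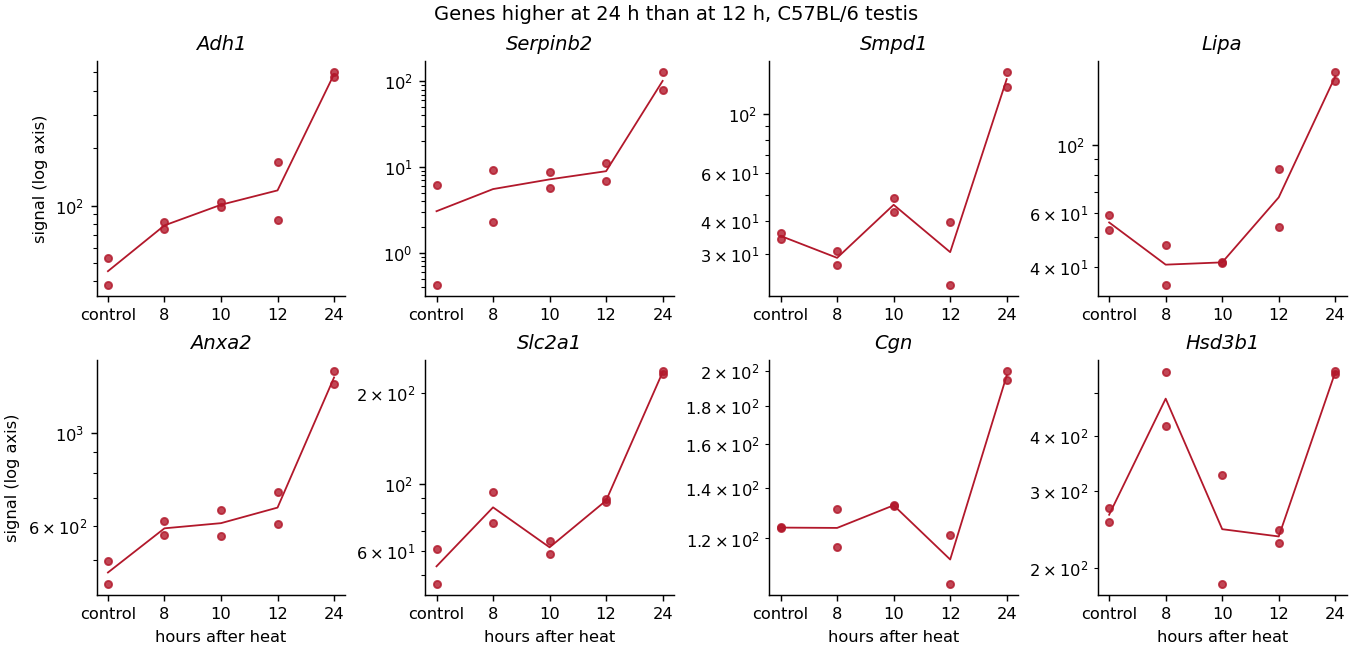
Signal (log axis) of 8 genes that were higher at 24 h than at 12 h in C57BL/6 testis, against hours after heat, with unheated controls at the left. Points are single arrays (2 per time) and lines join the group means of log2(signal + 16) turned back into signals; the mean of Adh1 climbs at every time, while Serpinb2, Smpd1 and Lipa stay near their control level up to 12 h.

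Among genes for engulfing and digesting cell remains, more were called higher than lower. Of 30 tested engulfment receptors and lysosomal genes, 12 were called higher, against 5.62% of all genes, 0 were lower, and 18 did not pass. Their median was 0.46, and 28 lay above 0. Without 1 array the number higher was 12 (12 h replicate 1), 3 (12 h replicate 2), 3 (24 h replicate 1) and 7 (24 h replicate 2). Lipa, the lysosomal acid lipase, gave 173 and 162 at 24 h and 83.6 and 53.7 at 12 h, a rise of 1.14 (SE 0.18, adjusted p = 0.00393) in all 4 fits, with 0.28 and 1.50 on its other probe sets. Grn, progranulin, rose by 0.80 (SE 0.14, adjusted p = 0.00492; 0.0607 without 24 h replicate 1). Abca1, which exports cholesterol from cells that have taken up lipid, gave 873 and 737 at 24 h and 415 and 251 at 12 h and rose by 1.27 (SE 0.27, adjusted p = 0.0115; 0.114 without 12 h replicate 2 and 0.0975 without 24 h replicate 1). Ctsa, a lysosomal carboxypeptidase, rose by 0.98 (adjusted p = 0.00493) but had −0.75 on its other probe set.

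Markers of macrophages and leukocytes had more summed signal at 24 h. The sum over 24 markers was 2683 and 2685 at 24 h and 2058 and 1605 at 12 h, and the part of leukocyte RNA in the lysosomal calls was not tested. Of 23 tested, 4 were higher, against 5.62% of all genes, 0 were lower and 19 did not pass (median 0.36), and 1 was higher without 12 h replicate 2, 24 h replicate 1 or 24 h replicate 2. C1qa, a complement subunit made by tissue macrophages, gave 82.2 and 92.1 at 24 h and 30.6 and 10.5 at 12 h, a rise of 1.55 (SE 0.23, adjusted p = 0.00267) in all 4 fits. Its controls were 54.7 and 51.2, so that 24 h differed from controls by less than 12 h did (0.58 and −0.97). Lyz2 and Mrc1, the macrophage lysozyme and mannose receptor, rose by 1.03 and 0.84 (adjusted p = 0.0115 and 0.0119). Their adjusted p was 0.114 and 0.112 without 12 h replicate 2, 0.0656 and 0.0898 without 24 h replicate 1, and 0.0697 and 0.0509 without 24 h replicate 2. Neutrophil markers (0 of 7 called, median −0.42), T and B lymphocyte markers (0 of 6, median −0.15) and inflammatory cytokines and NF-kB targets (0 of 23, median 0.02) were not called. In the last list the adhesion molecule Vcam1, read at 0.32, gave 1.23 and 2.13 on its other probe sets. The arrays of both of these did not overlap between the times. Of the neutrophil markers on the chip 5 of 9, and of the lymphocyte markers 7 of 9, were dim at both times.

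Some surface, cytoskeletal and junction genes were called higher at 24 h, although most members of each list did not pass. Over all genes, 5.62% were higher and 3.99% lower. Of 24 genes in the list of the TWEAK receptor, keratins, annexins and S100 proteins 9 were higher, 0 lower and 15 not passing (median 0.55, with 22 above 0), and 9, 3, 2 and 8 were higher without 12 h replicates 1 and 2 and 24 h replicates 1 and 2. Anxa2, a membrane-binding annexin, gave 1401 and 1302 at 24 h and 725 and 608 at 12 h and rose by 1.01 (SE 0.15, adjusted p = 0.0027) in all 4 fits, although its other probe set gave −0.51. Anxa5, which binds phosphatidylserine on dying cells, rose by 1.06 (adjusted p = 0.00492; 0.0546 without 24 h replicate 1). Vim, the intermediate filament protein of Sertoli and other somatic cells, gave 2450.3 and 2401 at 24 h and 1513 and 1315 at 12 h and rose by 0.78 (adjusted p = 0.00548; 0.0521 without 12 h replicate 2 and 0.0546 without 24 h replicate 1).

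Of 21 blood-testis barrier junction genes 7 were higher, 0 lower and 14 not passing (median 0.47), with 9, 1, 1 and 3 higher without 12 h replicates 1 and 2 and 24 h replicates 1 and 2. Beside the 5.62% of all genes that were higher, the share of this list was larger, and the collagen and actin lists below lay nearer to it. Cgn, cingulin of tight junctions, gave 200 and 194 at 24 h and 121 and 104 at 12 h, against 124 and 124 in controls. It rose by 0.73 (SE 0.11, adjusted p = 0.00286) in all 4 fits. F11r, the junctional adhesion molecule A, rose by 0.99 (adjusted p = 0.00609; 0.0641 without 12 h replicate 2 and 0.0765 without 24 h replicate 1). Of 33 collagen, laminin and matrix genes 4 were higher, 0 lower and 29 not passing (median 0.24), and 1 was higher without 12 h replicate 2 or either 24 h array. Dcn, the proteoglycan decorin, gave 937 and 834 at 24 h and 419 and 407 at 12 h (1.07, adjusted p = 0.00306). With 1 array left out its difference was 0.99 to 1.15. Its other probe set gave −0.93, but read only 2.22 and 2.30 at 24 h and 16.4 and 21.5 at 12 h. Of 30 genes of the actin cytoskeleton and focal adhesions 4 were higher, 2 lower and 24 not passing (median 0.23), and 0 were higher without 12 h replicate 2 or either 24 h array.

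Of the other testis cell types, Sertoli cell markers had 3 of 23 higher, 1 lower and 19 not passing (median 0.16), and 0 called without 12 h replicate 2 or 24 h replicate 1. The shares over all genes were 5.62% higher and 3.99% lower. The summed signal of 24 Sertoli cell markers was 28534 and 27594 at 24 h and 26006 and 26028 at 12 h. Peritubular myoid cell markers had 0 of 13 called (median 0.05) and endothelial markers 0 of 11 (median 0.14). Markers from outside the testis showed 1 array apart. Adipose markers summed to 1964 and 815 at 24 h and 493 and 781 at 12 h, with 0 of 6 called (median 0.72), so 24 h replicate 1 held more than the other 24 h array and both 12 h arrays. Fabp4, a fatty acid carrier of fat cells, gave 722 and 195 at 24 h and 69.3 and 112 at 12 h, and the part of fat tissue RNA in results that rest on 24 h replicate 1 was not tested. Red blood cell markers (0 of 2 called, median −0.48) and epididymal markers (0 of 3, median −0.37) were also not called, and 2 of 3 and 4 of 6 of them on the chip were dim at both times.

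Some detoxifying and metabolic genes were called higher at 24 h, beside 5.62% higher and 3.99% lower over all genes. Of 37 glutathione transferases and alcohol and aldehyde enzymes 9 were higher, 0 lower and 28 not passing (median 0.29), and 11, 3, 3 and 7 were higher without 12 h replicates 1 and 2 and 24 h replicates 1 and 2. Gsta2, an alpha class glutathione transferase, gave 1282 and 1298 at 24 h and 592 and 402 at 12 h, a rise of 1.37 (SE 0.20, adjusted p = 0.00286), and Gsta4, which removes lipid peroxidation products, gave 1754 and 1446 at 24 h and 915 and 671 at 12 h, a rise of 1.01 (SE 0.14, adjusted p = 0.00219). Both were called in all 4 fits, as was Adh1. Slc2a1, the glucose carrier GLUT1, gave 232 and 237 at 24 h and 87.2 and 89.2 at 12 h. It rose by 1.27 (SE 0.17, adjusted p = 0.0019) in all 4 fits, with 0.70 and 0.86 on its other probe sets, while the germ cell carrier Slc2a3 fell. Hk2 and Pfkl, enzymes of the first steps of glycolysis, rose by 0.89 and 0.76 (adjusted p = 0.021 and 0.0129). Pfkp, another phosphofructokinase, fell by 0.89 (adjusted p = 0.00351). Other probe sets of Pfkp gave −0.05 and −0.03, at signals of only 11.6 to 37.2. The call of Hk2 ended without 12 h replicate 2 (adjusted p = 0.163), 24 h replicate 1 (0.122) or 24 h replicate 2 (0.0817), and that of Pfkl without 12 h replicate 1 (0.0662) or 24 h replicate 1 (0.12), with −0.12 to 0.29 on other probe sets of Pfkl. The list of somatic glycolysis and hypoxia genes had 4 of 21 higher, 1 lower and 16 not passing (median 0.20).

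The other lists had 3 or fewer members called higher, beside 5.62% higher and 3.99% lower over all genes. The shares called higher in the cholesterol, TGF-beta, DNA repair and proteasome lists were close to that of all genes. Cholesterol synthesis had 1 of 19 higher, 0 lower and 18 not passing (median 0.30), retinoid handling 2 of 15 higher, 0 lower and 13 not passing (median −0.23), and TGF-beta and activin signalling 2 of 24 higher, 0 lower and 22 not passing (median 0.06). The integrated stress and unfolded protein response had 3 of 30 higher, 1 lower and 26 not passing (median 0.09), and interferon-stimulated genes had 2 of 22 higher, 1 lower and 19 not passing (median 0.41). DNA damage signalling and repair had 2 of 28 higher, 0 lower and 26 not passing (median −0.08). Its member Atm, the kinase that signals DNA breaks, gave 190 and 185 at 24 h and 87.4 and 81.9 at 12 h, a rise of 1.01 (SE 0.14, adjusted p = 0.00257) in all 4 fits. The proteasome had 3 of 46 higher, 0 lower and 43 not passing (median 0.17, with 39 above 0), with 8, 1, 1 and 1 higher without 12 h replicates 1 and 2 and 24 h replicates 1 and 2, and its member Psma7, a core subunit, rose by 0.72 (adjusted p = 0.00445) in all 4 fits. MHC and antigen presentation (0 of 13, median 0.15), autophagy (0 of 17, median −0.003) and cytosolic ribosomal proteins (0 of 44, median 0.02) had 0 called.

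**Figure D3:**
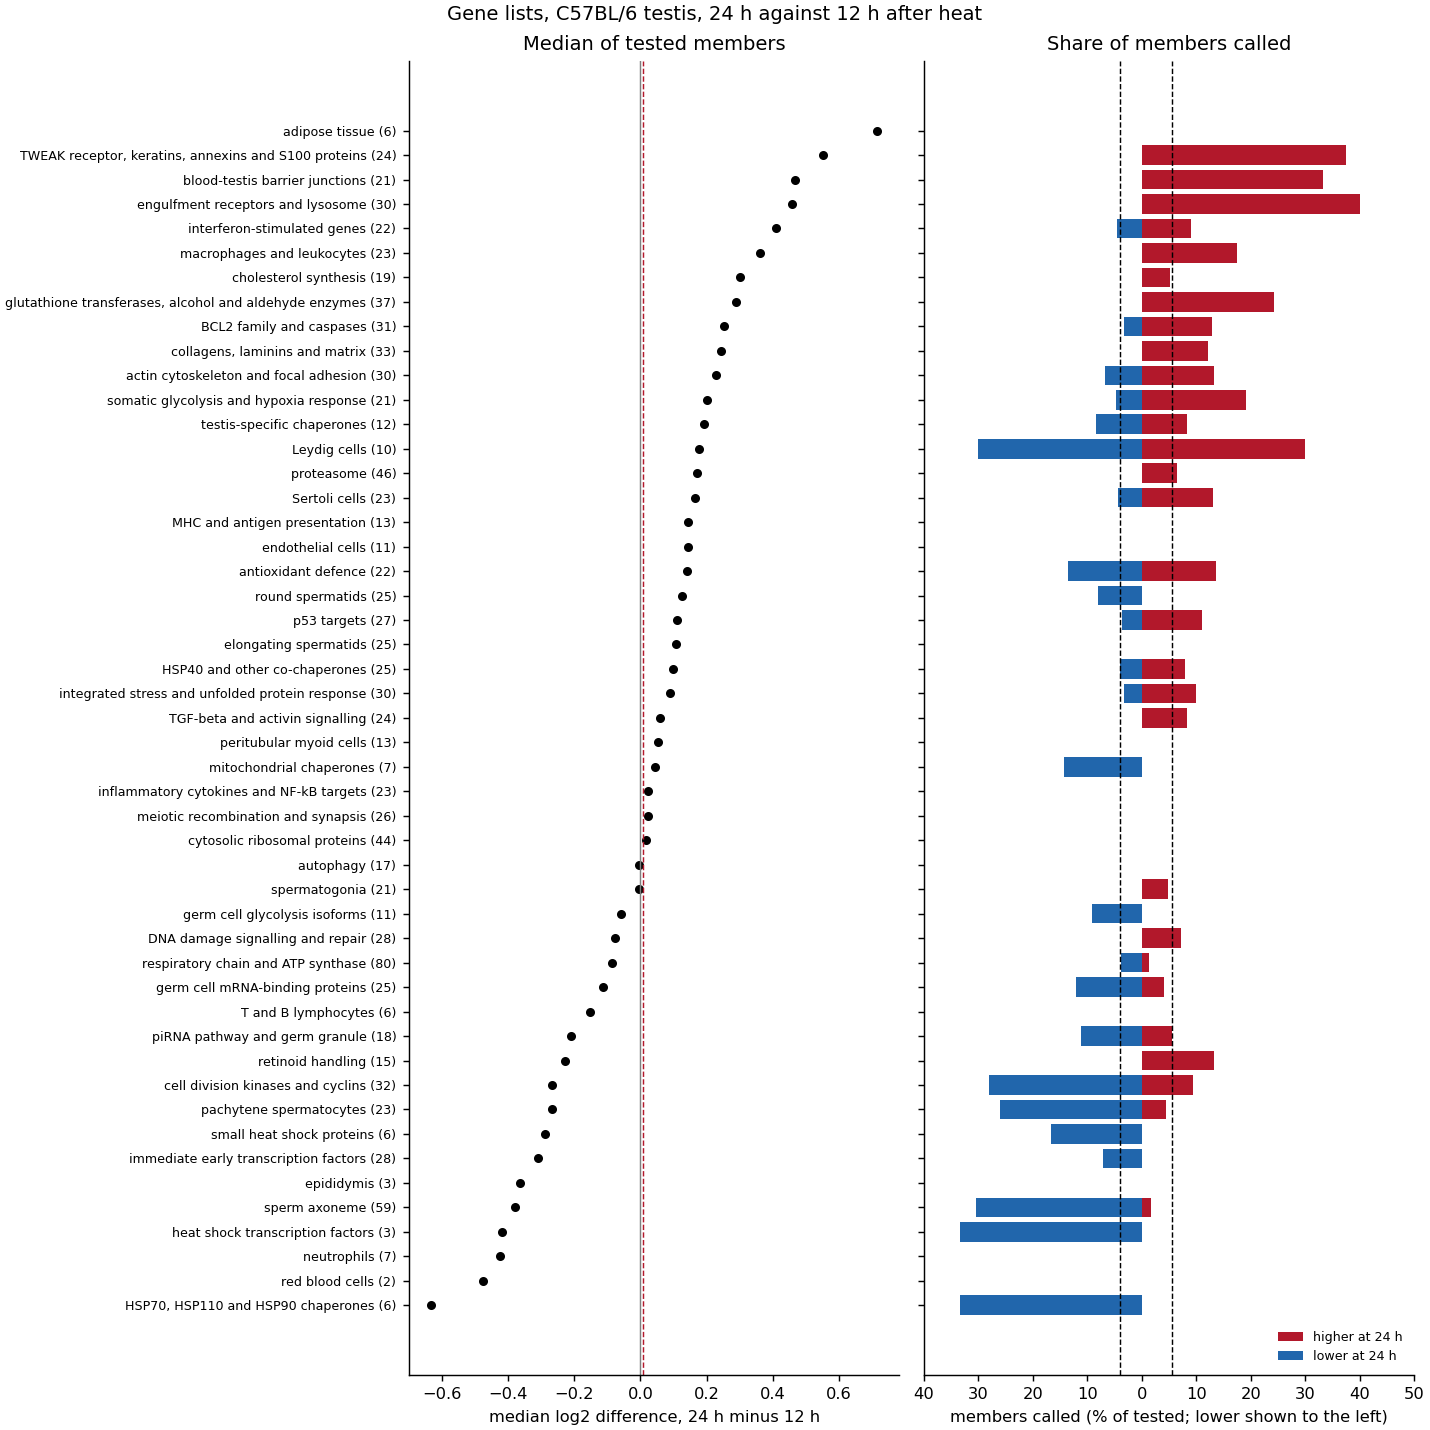
Gene lists in C57BL/6 testis, 24 h against 12 h after heat, with the number of tested members in brackets. Left, the median log2 difference of each list, with the median of all genes (0.01) as a dashed line; right, the share of tested members called higher (to the right) or lower (to the left), with the shares over all genes (5.62% and 3.99%) as dashed lines. The highest medians are those of adipose markers (0.72) and of the annexin (0.55), junction (0.47) and engulfment (0.46) lists, and the lowest is that of the HSP70, HSP110 and HSP90 chaperones (−0.63), while the mitochondrial chaperones (0.05), co-chaperones (0.10) and testis-specific chaperones (0.19) lie above 0.

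To ask how the interval relates to what had happened by 10 h, genes were grouped on other arrays, C57BL/6 10 h against unheated controls. At 10 h, 946 genes were higher than in controls (6% of all) and 818 were lower (5.19%). Of the 946, 105 (11.1%) were higher at 24 h than at 12 h, against 5.62% of all genes, 17 (1.8%) were lower, against 3.99%, and 824 were not called. Of the 818, 179 (21.9%) were lower again at 24 h, against 3.99% of all genes, 17 (2.08%) were higher, against 5.62%, and 622 were not called. The 179 made up 28.5% of the 629. The median 24 h minus 12 h difference was 0.18 for the genes higher at 10 h, of which 74.8% lay above 0, and −0.25 for those lower at 10 h, of which 24% lay above 0, beside 50.8% of all genes. Most members of both groups did not pass the test in this interval.

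The number of genes that turned back changed with single arrays. The 17 that had risen by 10 h and fell between 12 h and 24 h included Hspa1b, Hmox1, Cyp17a1, Cyp11a1, Hspa8 and Maff, described above, and Pmaip1, the BH3-only protein NOXA. Pmaip1 gave 44 and 47.6 at 24 h and 89.5 and 88.9 at 12 h (−0.77, adjusted p = 0.0209), and its call ended without any 1 array (adjusted p from 0.0525 to 0.132). Zfp64, a zinc finger protein, gave 39 and 11 at 24 h and 64 and 60 at 12 h (−1.02, adjusted p = 0.0428), with adjusted p = 0.102 and 0.15 without 12 h replicates 1 and 2 and 0.331 without 24 h replicate 2. The count of 17 was 3 without 12 h replicate 2 or 24 h replicate 2 and 5 without 24 h replicate 1, and the count of 179 was 67, 71 and 30 in those fits. In the other direction, Kctd14 gave 209 and 167 at 24 h and 47.9 and 45.6 at 12 h, with controls at 238 and 218. So its 24 h signals were close to the unheated ones and its 12 h signals were not. Msi2, an RNA-binding protein of stem and germ cells, gave 228 and 209 at 24 h, 80.7 and 75.1 at 12 h and 434 and 387 in controls, but other probe sets differed by −0.30 to 1.09 between 24 h and 12 h. Its rise of 1.32 (adjusted p = 0.0101) had adjusted p = 0.0697 without 12 h replicate 2 and 0.0817 without 24 h replicate 1. Diaph2, Ccbe1 and Bmyc were also lower at 10 h than in controls and higher at 24 h than at 12 h.

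The same interval in AKR/N testes, with means of other arrays, gave 975 higher and 613 lower genes (6.19% and 3.89%). The calls of both strains also shared 1 variance per gene, so the overlaps of called genes are not independent of it. Of the 886 genes higher at 24 h in C57BL/6, 383 (43.2%) were also called higher in AKR/N and 3 were called lower, and 90.9% lay above 0 in AKR/N, against 47.2% of all genes. Of the 629 lower in C57BL/6, 138 (21.9%) were called lower in AKR/N and 4 higher, and 13% lay above 0. The shared genes were 39.3% of the AKR/N genes called higher and 22.5% of those called lower. Across the 15762 genes the changes of both strains correlated with r = 0.50, a description over genes, which are not independent replicates. Diaph2, Adh1 and Lipa rose by 2.47, 1.36 and 1.11 in AKR/N (adjusted p = 1.98e-05, 0.00318 and 0.00337), and Hspa1b and Hmox1 differed by −4.27 and −2.95 (adjusted p = 0.00238 and 0.00117). Serpinb2, by contrast, differed by 0.15 in AKR/N (adjusted p = 0.846), but the difference between strains did not pass the test (2.08, SE 0.54, adjusted p = 0.179). Hspd1 had a difference of −0.08 in C57BL/6 and fell by 1.25 in AKR/N (adjusted p = 0.00126), and that difference of 1.17 (SE 0.24) did not pass either (adjusted p = 0.104).

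**Figure D4:**
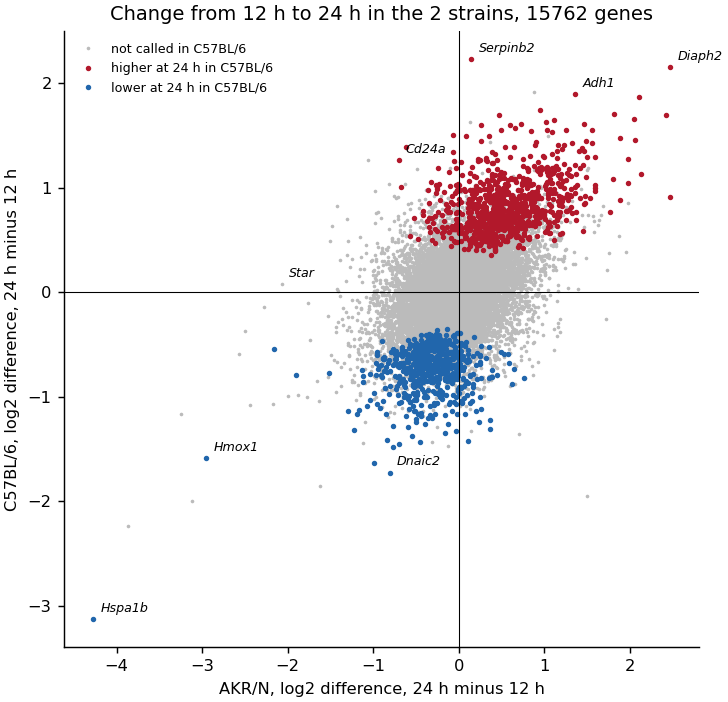
Log2 difference between 24 h and 12 h in C57BL/6 (vertical axis) against AKR/N (horizontal axis) for the 15762 genes tested; red and blue points are genes called higher (886) and lower (629) at 24 h in C57BL/6. Most coloured points have the same sign in both strains, with r = 0.50 over all genes, and Cd24a and Star lie away from the diagonal.

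A difference between the strains in this interval was called for 8 genes, 4 in each direction (0.0254% of the genes each). Cd24a, a glycosylated surface protein of many immature cells, gave 761 and 669 at 24 h and 283 and 293 at 12 h in C57BL/6, and 123 and 155 at 24 h and 238 and 233 at 12 h in AKR/N. The strains moved in opposite directions, by 1.26 and −0.70, and the difference of 1.97 (SE 0.21, adjusted p = 0.00489) was called in 7 of 8 fits without 1 array, the exception being C57BL/6 24 h replicate 1 (adjusted p = 0.0594). Star, whose C57BL/6 arrays overlapped between the times, gave 174 and 269 at 24 h and 988 and 932 at 12 h in AKR/N, a change of −2.07. Tsx, an X-linked testis gene, gave 295 and 305 at 24 h and 554 and 521 at 12 h in C57BL/6, against 676 and 654 at 24 h and 454 and 565 at 12 h in AKR/N. The other genes were Ppp1r3b, Txnrd1, Cracd, Enthd1 and the unnamed transcript 1700110I01Rik, and no gene of the chaperone lists was among them.

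**Figure D5:**
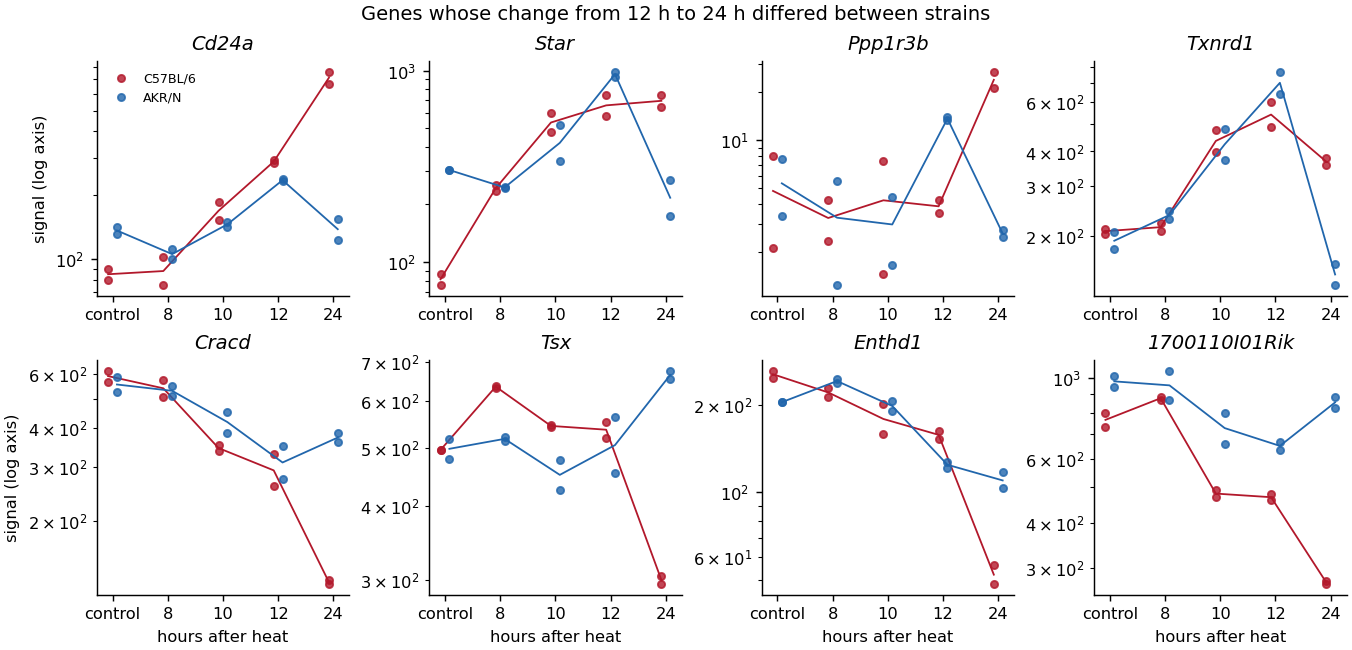
Signal (log axis) against hours after heat, with unheated controls at the left, for the 8 genes whose change from 12 h to 24 h differed between strains; red, C57BL/6; blue, AKR/N. Points are single arrays (2 per group) and lines join the group means of log2(signal + 16) turned back into signals. Cd24a at 24 h lies at 669 and 761 in C57BL/6 and at 123 and 155 in AKR/N, and the 24 h arrays of both strains do not overlap for any of the 8.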

How the data were processed

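Total RNA of whole testes was hybridised to Affymetrix Mouse Genome 430 2.0 arrays, 1 array per sample, after amplification from the 3' end, per the labels' protocols. The deposited values are linear signal intensities per probe set as the authors made them. Their summarising software is not given in the sources used here, and the trimmed mean was 125.001 on every array. Values were used as deposited, as log2(intensity + 16). Of 45101 probe sets, 34945 named 1 gene in the platform annotation, 932 several and 9160 none. Each of 18193 genes was read by its brightest probe set on average, and genes whose highest group mean lay under the 40th percentile of the mean of all probe sets were left out, which left 15762. limma 3.58.1 in R 4.3.3 fitted 10 group means to 20 arrays (10 residual and 3.54 prior degrees of freedom), with Benjamini-Hochberg adjustment over all genes. The number of arrays limits the precision. The members and the 49 gene lists were chosen with earlier results of these data known. Genes named were drawn from these: the 14 with the largest called change in each direction among named genes whose arrays did not overlap, up to 5 members of each list with the smallest adjusted p, the 8 and 5 largest of those that turned back after 10 h, those whose change differed between strains, and markers used as checks. Dnajb6 was named for its motif after its values were seen. Replicate numbers were not used as pairs: across 45 pairs of groups, same-numbered arrays deviated together with a median r of −0.01, and r was −0.10 between 24 h and 12 h. The fit was tested on simulated data. Alternatives covered scaling, pseudocount, filter, choice of probe set, arrays in the fit, variance moderation, the replicate block and leaving out single arrays. Arrays left out were those of C57BL/6 controls, C57BL/6 at 10 h, 12 h and 24 h, and AKR/N at 12 h and 24 h. Promoter windows came from RefSeq, assembly GRCm38.p6. Signals from 3' ends depend on RNA integrity, and a probe set reads only part of a transcript.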

Additional observations from a re-analysis of the deposited data

Results flagged for a closer look

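For 8 genes the change from 12 h to 24 h differed between the strains in a limma test of the difference itself, C57BL/6 minus AKR/N. Cd24a differed by 1.97 (changes of 1.26 in C57BL/6 and −0.70 in AKR/N, adjusted p = 0.00489). Its other probe sets gave 1.17 and 1.31 in C57BL/6, and it was called in 7 of 8 fits without 1 array. Star, the mitochondrial cholesterol carrier, differed by 2.14 (0.08 in C57BL/6 and −2.07 in AKR/N, adjusted p = 0.0284), with adjusted p from 0.0216 to 0.138 when 1 array was left out. Txnrd1, a thioredoxin reductase, differed by 1.62 (−0.54 in C57BL/6 and −2.16 in AKR/N, adjusted p = 0.0284, range 0.0195 to 0.138). With the mean of all its probe sets the difference of Txnrd1 turned to −0.0895, and its other probe set changed by −1.52 in C57BL/6. In C57BL/6 the other probe sets of Star gave 0.66 and −0.17, and those of Cracd that were not dim gave −0.33 and −0.47. Ppp1r3b, a subunit that directs a phosphatase to glycogen, differed by 1.68 (1.01 in C57BL/6 and −0.67 in AKR/N, adjusted p = 0.0341, range 0.0547 to 0.172). In the other direction, Cracd, a regulator of actin capping, differed by −1.37 (−1.11 in C57BL/6 and 0.26 in AKR/N, adjusted p = 0.0358, range 0.0236 to 0.172). Enthd1 differed by −1.19 (−1.35 in C57BL/6 and −0.16 in AKR/N, adjusted p = 0.0321, range 0.0522 to 0.172). Tsx also differed by −1.19 (−0.81 in C57BL/6 and 0.38 in AKR/N, adjusted p = 0.0284, range 0.0167 to 0.138). The transcript 1700110I01Rik differed by −1.13 (−0.74 in C57BL/6 and 0.39 in AKR/N, adjusted p = 0.0388, range 0.0522 to 0.184). Star, Txnrd1, Cracd and Tsx were each called in 2 of 8 such fits, and Ppp1r3b, Enthd1 and 1700110I01Rik in 0 of 8.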

How the results depend on the processing

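The number of genes called depended on the fit, and the cause was not tested. With only the 4 arrays in the fit, 0 genes were higher, 0 lower and 0 called at least 2-fold by limma, while 2804 had an unadjusted p under 0.05. With the 10 C57BL/6 arrays, 532 were higher and 387 lower, and 1001 genes were called at 10 h against controls. Median centring left 395 lower and 1039 at 10 h. Genes called at least 2-fold (273) numbered 161 with the mean of all probe sets, 450 with a pseudocount of 1 and 72 with 64. When 1 array was left out, higher genes numbered 109 to 1109, lower genes 97 to 677 and those at least 2-fold 123 to 685. The calls at 10 h (1764) numbered 362 to 675, and those in AKR/N (1588) numbered 253 to 1215. The strain difference (8 genes) was called for 50 with a trended robust prior, 5 with median centring, 0 with probe sets without a suffix, 4 and 45 with pseudocounts of 1 and 64, and 0 to 18 with 1 array left out. Genes lower at 10 h and again at 24 h (179) numbered 303, 83, 93 and 284 with the trended prior, median centring, 10 arrays and a pseudocount of 64, and 30 to 140 with 1 array left out. Genes higher at 10 h and lower at 24 h (17) numbered 10 with median centring, without a filter or with probe sets without a suffix, 5 with 10 arrays, 30 with a pseudocount of 64, and 3 to 22 with 1 array left out. Probe sets without a suffix reversed Shmt2 (−0.0183), Tpm3 (−0.0906), Pfkl (−0.12), Msi2 (−0.16) and Lyz1 (−0.59), and the mean of all probe sets reversed the strain difference of Txnrd1 (−0.0895). With the replicate number as a block, 811 genes were higher, 548 lower and 4 differed between strains, and of 265 named genes 248 kept their call; the numbers share no stated pairing. Groups of 2 arrays limit the precision of all these values.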
